A study of Mus musculus with 12 samples.

Results

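The 8 genes described here encode enzymes on the route from glycerol 3-phosphate to triglyceride: the acyltransferases *Gpam*, *Agpat2* and *Agpat3*, the lipins *Lpin1*, *Lpin2* and *Lpin3*, and the diacylglycerol acyltransferases *Dgat1* and *Dgat2*. They were chosen by symbol, with earlier results of these data known. Each had at least 1 probe set with that single symbol, so that they are 8 of the 22180 genes so named on the array. All 8 were among the 14550 genes that passed a filter on low signal. Their RNA was measured in subcutaneous inguinal white adipose tissue (WAT) of 6 R6/2 and 6 wild type (WT) male mice of 12 weeks, with 1 Affymetrix mouse gene array per mouse. R6/2 mice carry a transgene with exon 1 of human huntingtin and an expanded CAG repeat under the human huntingtin promoter. They serve as a model of Huntington's disease in which the transgene makes a fragment of the protein. WT mice were their littermates, and both genotypes were on the C57BL/6 background, untreated, and killed before overt symptoms. The probes read mouse transcripts, so the transgene itself was not checked on these arrays.

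In the glycerol phosphate pathway, fatty acyl chains are joined step by step to a glycerol backbone in the endoplasmic reticulum and at the outer face of mitochondria. Glycerol 3-phosphate acyltransferases make lysophosphatidic acid, acylglycerolphosphate acyltransferases make phosphatidic acid, lipins remove its phosphate to give diacylglycerol, and diacylglycerol acyltransferases add the last chain. In white fat this route fills the lipid droplet, and loss of lipin 1 in mice or of AGPAT2 in people leads to lipodystrophy.

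Values are the deposited log2 signals, where a difference of 1 equals a change of 2 times, and the signals of different genes are not compared because each probe set has its own brightness. A gene counted as measured if either genotype's mean exceeded a level limit, the median signal of probe sets that carry no gene symbol (5.44 in R6/2 and 5.45 in WT arrays). The tissue label was checked with 13 genes of mature adipocytes, whose mean signal was 10.78 to 11.50 in R6/2 pads and 10.64 to 11.53 in WT pads (exact two-sided permutation test over the 12 mice, p = 0.693). Other cells of the pads differed more. The mean of 19 macrophage genes was 7.15 to 8.46 in R6/2 pads and 7.79 to 8.68 in WT pads (exact permutation p = 0.0563). All 19 were lower in R6/2, against 45.8% of all genes. The mean of 13 lymphocyte genes was 5.33 to 5.57 in R6/2 mice 3 and 4 and WT mouse 4 but 8.04 to 10.16 in the other 9 mice. The mean of 20 skeletal muscle genes was 5.82 to 10.38 in R6/2 pads and 5.81 to 9.90 in WT pads (exact permutation p = 0.316). All 20 were higher in R6/2, against 54.2% of all genes, with a median difference of 0.99. In whole pads, fewer cells of a type and less RNA per cell cannot be told apart.

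Of the 8 genes, *Lpin3* was the 1 gene without overlap, with its 6 R6/2 values below all 6 WT values, while the groups overlapped for the other 7. Over all 14550 genes, limma with Benjamini-Hochberg adjustment called 0 genes (0%) at an adjusted p under 0.05, and so 0 of the 8. At an unadjusted p under 0.05 it gave 850 genes (5.84%), of which 482 (3.31%) were lower in R6/2 mice, and 1 of the 8 was among the lower. SAM, the permutation method that the study used, called 106 genes (0.729%) at a q under 5%, of which 102 were lower (0.701%) and 4 higher (0.0275%), and 1 of the 8 was among the lower. Groups did not overlap for 56 genes (0.385%), with R6/2 lower for 27 (0.186%), and 1 of the 8 was among these 27. In each of these counts the 1 gene was *Lpin3*. The 8 genes were chosen with earlier results of these data known, so the shares are a description and no test of the group. Without a threshold, 5 of the 8 had a higher mean in R6/2 pads, against 54.2% of all genes, and 3 a lower one, against 45.8%, and the median difference of the 8 was 0.04, against 0.01 over all genes.

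**Figure D1:**
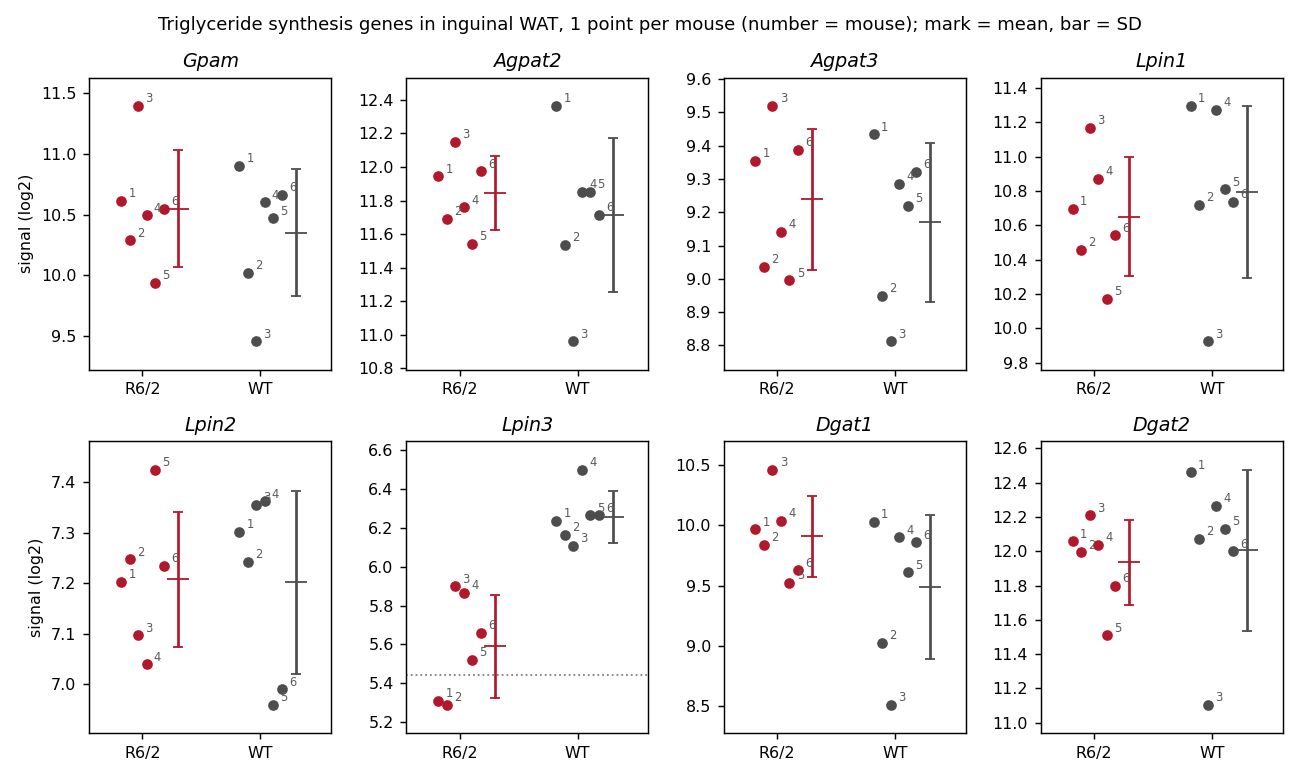
Log2 signal of each gene in the 6 R6/2 mice (red, left) and the 6 WT mice (grey, right), 1 point per mouse with its number, beside the group mean and SD; each panel has its own axis and the dotted line in the *Lpin3* panel is the level limit of 5.44. *Lpin3* is the gene whose 6 R6/2 points, at 5.29 to 5.90, lie below all WT points, at 6.11 to 6.50; WT mouse 3 is the lowest mouse for 6 of the other genes.

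The first step is represented by *Gpam* (probe set 17365728), which encodes the mitochondrial glycerol 3-phosphate acyltransferase. Its signal was 9.94 at the lowest, 10.52 at the median and 11.40 at the highest in R6/2 pads, against 9.45, 10.54 and 10.90 in WT pads. The ranges overlapped over most of their width, and 1 R6/2 mouse was above all WT mice. The mean difference was 0.20 on the log2 scale (SE 0.27, 95% confidence interval −0.38 to 0.77; limma adjusted p = 0.960, exact permutation p = 0.530).

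*Agpat2* (probe set 17383104), an acylglycerolphosphate acyltransferase that is highly expressed in fat, had 11.54, 11.85 and 12.15 as lowest, median and highest signal in R6/2 pads and 10.96, 11.78 and 12.36 in WT pads. The WT range enclosed the R6/2 range, and the difference of 0.13 (SE 0.19, −0.29 to 0.55) was smaller than the SD of either genotype (limma adjusted p = 0.969). *Agpat3* (probe set 17242474), another member of that family, had 9.00, 9.25 and 9.52 in R6/2 pads and 8.81, 9.25 and 9.43 in WT pads. Its medians matched to 2 decimals, and the difference of the means was 0.07 (SE 0.13, −0.21 to 0.34; limma adjusted p = 0.976).

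Lipins are phosphatidate phosphatases that act at the step before diacylglycerol, and lipin 1 also serves as a coactivator of transcription in the nucleus. *Lpin1* (probe set 17280062), the form typical of adipocytes and muscle, had 10.17, 10.62 and 11.17 in R6/2 pads, against 9.92, 10.77 and 11.29 in WT pads. Its highest and lowest mice were both WT, and the difference was −0.14 (SE 0.23, −0.64 to 0.35; limma adjusted p = 0.971). *Lpin2*, prominent in liver and in macrophages, had 2 probe sets. One of them (17339460) averaged 5.29 ± 0.42 in R6/2 and 5.32 ± 0.55 in WT pads (SD, n = 6 each) and was below the level limit in both. The other (17339434), which gives the gene's value here, had 7.04, 7.22 and 7.43 in R6/2 pads and 6.96, 7.27 and 7.36 in WT pads. The groups lay on top of each other, with a difference of 0.01 (SE 0.10, −0.20 to 0.21; limma adjusted p = 0.997).

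*Lpin3* (probe set 17379077), the least studied lipin, which in mice acts with lipin 1 in fat, was the exception among the 8 genes. Its signals in R6/2 mice 1 to 6 were 5.31, 5.29, 5.90, 5.87, 5.52 and 5.66, against 6.24, 6.16, 6.11, 6.50, 6.27 and 6.27 in WT mice 1 to 6. The highest R6/2 value stayed under the lowest WT value, and R6/2 mice 1 and 2 were below the level limit while no WT mouse was. The mean was 5.59 ± 0.27 in R6/2 and 6.26 ± 0.13 in WT pads (SD, n = 6 each), a difference of −0.67 (SE 0.12, −0.92 to −0.41). As a ratio, R6/2 signal was 0.63 times that of WT (95% confidence interval 0.53 to 0.75). The exact permutation test gave p = 0.00216, the smallest that 6 against 6 mice allow, and by limma *Lpin3* ranked 6 of 14550 genes, with an adjusted p of 0.249. SAM gave a q of 0%, which was also 0% after each of the 12 mice in turn was left out. Under limma the adjusted p ran from 0.00469 to 0.693 over the settings tried. R6/2 was lower in each, though many of these settings could not have turned that sign.

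The signal of *Lpin3* stood close to the level limit, so the ratio holds on the array scale, and no other measure of this transcript was used here. Within each genotype the highest *Lpin3* values were in the mice with the low lymphocyte mean, at 5.90 and 5.87 in R6/2 mice 3 and 4 and at 6.50 in WT mouse 4. Among the other 9 mice, R6/2 values were 5.29 to 5.66 and WT values 6.11 to 6.27, with a difference of −0.76 (SE 0.094; limma adjusted p = 0.0285). This restriction was chosen after the data had been seen.

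The letters before the start sites of *Lpin3* are shown because this gene carried the difference, and those of *Lpin1*, the main lipin of adipocytes, for comparison. Promoter windows came from RefSeq (GRCm38.p6), which matched 6 of the 8 genes with 10 start sites, while *Dgat1* and *Dgat2* had no entry. Each window holds the 250 bases before a start site, written 5′ to 3′ on the strand of the gene. Capitals mark matches on either strand to GGGCGG (the GC box bound by SP1), CACGTG (E-box), AGGTCA (a nuclear receptor half-site), TGACG (a core of the site bound by CREB1) or TTGCNNAA (a C/EBP core).
Lpin3 start 1, chr2:160880420-160880669, plus strand: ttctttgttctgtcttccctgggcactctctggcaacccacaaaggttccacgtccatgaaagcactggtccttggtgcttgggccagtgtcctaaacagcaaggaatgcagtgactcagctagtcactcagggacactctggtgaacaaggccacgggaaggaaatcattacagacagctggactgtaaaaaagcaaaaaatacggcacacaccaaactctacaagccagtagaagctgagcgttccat
Lpin3 start 2, chr2:160887918-160888167, plus strand: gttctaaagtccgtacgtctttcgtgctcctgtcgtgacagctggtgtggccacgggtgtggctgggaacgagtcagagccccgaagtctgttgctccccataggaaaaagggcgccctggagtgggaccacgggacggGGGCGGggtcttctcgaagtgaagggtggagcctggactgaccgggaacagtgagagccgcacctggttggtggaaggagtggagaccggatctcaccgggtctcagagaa
Lpin1, chr12:16610967-16611216, minus strand: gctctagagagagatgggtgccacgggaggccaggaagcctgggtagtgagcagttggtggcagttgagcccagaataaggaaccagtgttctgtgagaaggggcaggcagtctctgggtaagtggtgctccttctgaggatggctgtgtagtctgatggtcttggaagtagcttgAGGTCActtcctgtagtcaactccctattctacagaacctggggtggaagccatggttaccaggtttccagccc

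The first *Lpin3* window held none of these letters and had 49.6% G and C, and the second held 1 GGGCGG that began 111 bases before the start and had 61.6%. In *Lpin1*, 1 AGGTCA began 74 bases before the start, and G and C made up 54.8%. The median over all 32851 windows was 52.4%. GGGCGG was present in 5 of the 10 windows of these genes, against 32.7% of all windows. AGGTCA was in 2 of the 10 (14.0% of all windows), TGACG in 2 (17.8%), TTGCNNAA in 2 (9.56%) and CACGTG in 1 (6.02%). In the first *Lpin2* window the CACGTG overlapped a TGACG, and in *Agpat2* a pair of GGGCGG matches overlapped. A match here is a description of the letters, and the absence of one says nothing of the factor.

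The last step divides between enzymes that are unrelated in sequence. *Dgat1* (probe set 17318502), which in adipocytes re-esterifies fatty acids released by lipolysis, had the largest positive difference of the 8 genes. Its signal was 9.53 at the lowest, 9.90 at the median and 10.46 at the highest in R6/2 pads, against 8.51, 9.73 and 10.03 in WT pads. Of the R6/2 mice, 2 were above all WT mice, and WT mice 2 and 3, at 9.02 and 8.51, were below all R6/2 mice. The difference was 0.42 (SE 0.25, −0.13 to 0.97), or 1.34 times the WT signal (0.91 to 1.96), and did not pass the test (limma adjusted p = 0.874, exact permutation p = 0.177, SAM q = 51.3%). Without WT mouse 3 it was 0.22 (SE 0.20). *Dgat2* (probe set 17493632), which handles newly made fatty acids and whose loss in mice leaves very little stored triglyceride, had 11.51, 12.02 and 12.21 in R6/2 pads and 11.10, 12.10 and 12.46 in WT pads. The WT range enclosed the R6/2 range, and the difference was −0.07 (SE 0.20, −0.51 to 0.36; limma adjusted p = 0.986).

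**Figure D2:**
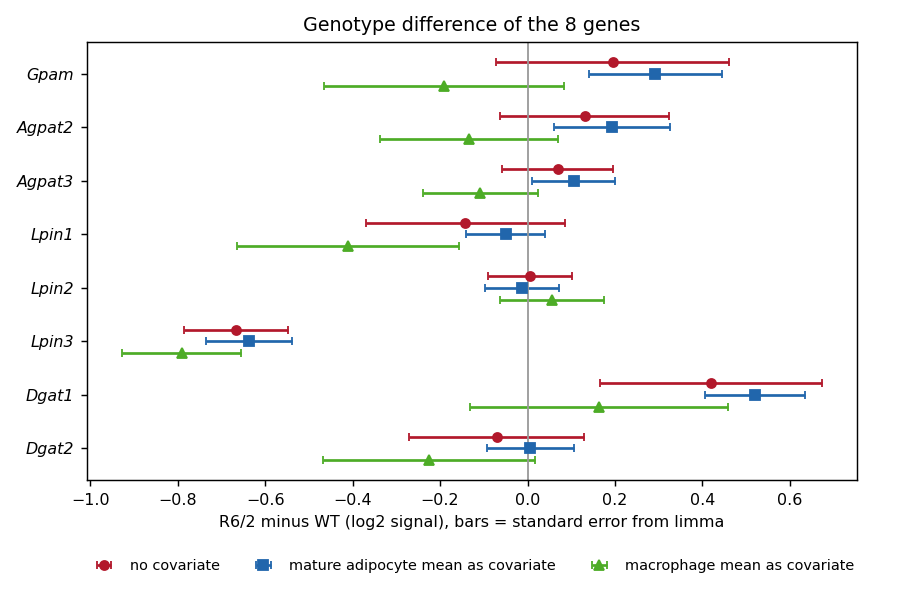
Difference between R6/2 and WT mice in log2 signal for each gene, with bars for the limma standard error, from the fit without a covariate (red circles) and with the mean of mature adipocyte genes (blue squares) or of macrophage genes (green triangles) as a covariate. *Lpin3* stays between −0.79 and −0.64 in the 3 fits, whereas *Dgat1* lies between 0.16 and 0.52 and *Gpam*, *Agpat2* and *Agpat3* fall on the other side of 0 with the macrophage covariate.

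Since pads differed in the RNA of other cells, the differences were also fitted beside marker means. For *Lpin3* the difference was −0.64 with the adipocyte mean as a covariate (SE 0.099, limma adjusted p = 0.0527), −0.79 with the macrophage mean (SE 0.14, adjusted p = 0.332), −0.73 with the muscle mean (SE 0.12, adjusted p = 0.250) and −0.67 with the lymphocyte mean (SE 0.073, adjusted p = 0.00469). R6/2 pads were lower in each of these fits, by values that bracket the −0.67 found without a covariate. The *Dgat1* difference was 0.52 with the adipocyte mean (SE 0.12, limma adjusted p = 0.141) and 0.16 with the macrophage mean (SE 0.30, adjusted p = 0.871). With the lymphocyte mean it was 0.41 (SE 0.19, limma adjusted p = 0.410) and with the muscle mean 0.31 (SE 0.26, adjusted p = 0.984). R6/2 pads were thus higher in *Dgat1* in each fit. *Gpam* had 0.29 with the adipocyte mean and −0.19 with the macrophage mean, and *Lpin1* had −0.05 and −0.41. None of these passed the threshold, and the part of macrophage RNA in them was not tested further.

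Across mice, 6 of the genes varied together. *Gpam*, *Agpat2*, *Agpat3*, *Lpin1*, *Dgat1* and *Dgat2* formed 15 pairs with Pearson's r of 0.695 to 0.942 and Spearman's rho of 0.546 to 0.944 over the 12 mice. By r, 15 of the 15 passed a permutation test adjusted over the 28 pairs of the 8 genes (adjusted permutation p 0.00014 to 0.0202, where the lowest comes from the smallest p that 100000 permutations give), and by rho 9 did (0.00028 to 0.119). The closest pairs were *Gpam* with *Agpat3* and *Lpin1* with *Dgat2*, each at r = 0.94. Within genotypes the 15 values ran from 0.582 to 0.985 in R6/2 mice and from 0.824 to 0.991 in WT mice. When the 2 most extreme mice for the first gene of a pair were left out, r was 0.460 to 0.925, lowest for *Agpat2* with *Dgat2*. These mice included WT mouse 3, which had the lowest signal of all 12 mice for each of the 6 genes, and also the lowest adipocyte mean (10.64) and the highest lymphocyte mean (10.16).

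Over the 12 mice, *Lpin2* and *Lpin3* did not take part in this pattern. Their pairs with the other genes had r of −0.455 to −0.164 for *Lpin2* and −0.164 to 0.445 for *Lpin3*, and 0 of these passed (lowest adjusted permutation p 0.240). Within R6/2 mice the *Lpin2* pairs were all negative, at −0.903 to −0.507, while in WT mice they lay between −0.315 and 0.05. For *Lpin3*, r with the co-varying genes was 0.245 to 0.634 within R6/2 mice and 0.484 to 0.722 within WT mice. With the genotype means taken out it was 0.334 to 0.591. Neither these correlations within genotypes nor their difference between the genotypes were tested.

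**Figure D3:**
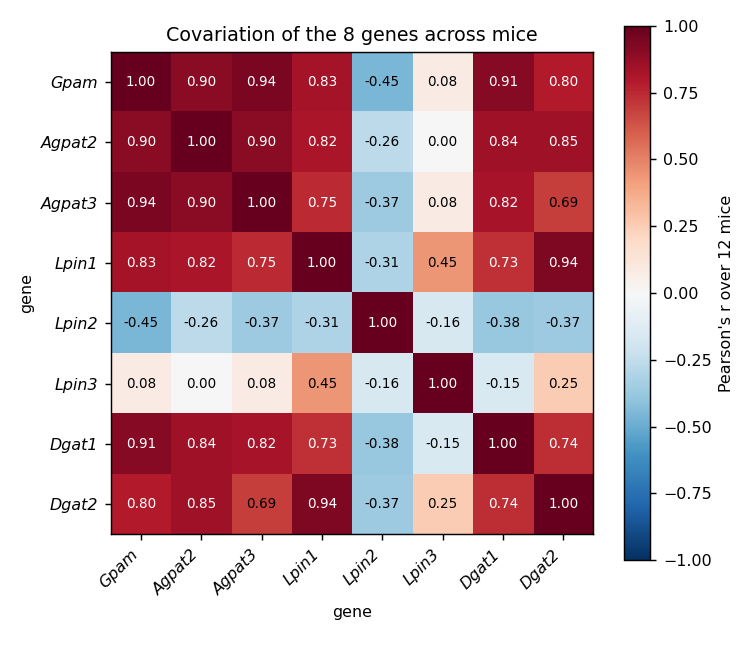
Pearson's r over the 12 mice for each pair of the 8 genes, from −1 (blue) to 1 (red). The 6 genes outside *Lpin2* and *Lpin3* form a red block with r of 0.695 to 0.942, and the rows of *Lpin2* and *Lpin3* hold no r above 0.445 off the diagonal.

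Of these 6 genes, 5 were related to the mature adipocyte mean by r and 3 by rho. P-values were adjusted over 32 relations of the 8 genes with 4 marker means, of which those with the lymphocyte mean used 9 mice. Over 12 mice, *Lpin1* had the highest r with the mature adipocyte mean, 0.937, and rho of 0.944 (adjusted permutation p 0.00064 and 0.00096). *Dgat2* had r of 0.898 and *Dgat1* 0.762, which also passed by both measures (adjusted permutation p for rho 0.0221 each). *Gpam*, at 0.791, and *Agpat2*, at 0.715, passed by r but not by rho (adjusted permutation p for rho 0.0587 and 0.163). *Agpat3*, at 0.672, passed by neither (0.0754 for r and 0.163 for rho). With the 2 most extreme mice for that mean left out, r was 0.839 for *Lpin1*, 0.688 for *Dgat2*, 0.561 for *Dgat1*, 0.498 for *Gpam* and 0.31 for *Agpat2* and *Agpat3*. The relations of *Gpam*, *Agpat2* and *Agpat3* thus rested largely on those mice. *Lpin3* had r of 0.408 and *Lpin2* −0.517, and neither passed. Within genotypes r was 0.588 in R6/2 and 0.778 in WT mice for *Lpin3*, and −0.98 and −0.237 for *Lpin2*. These values within genotypes were not tested.

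**Figure D4:**
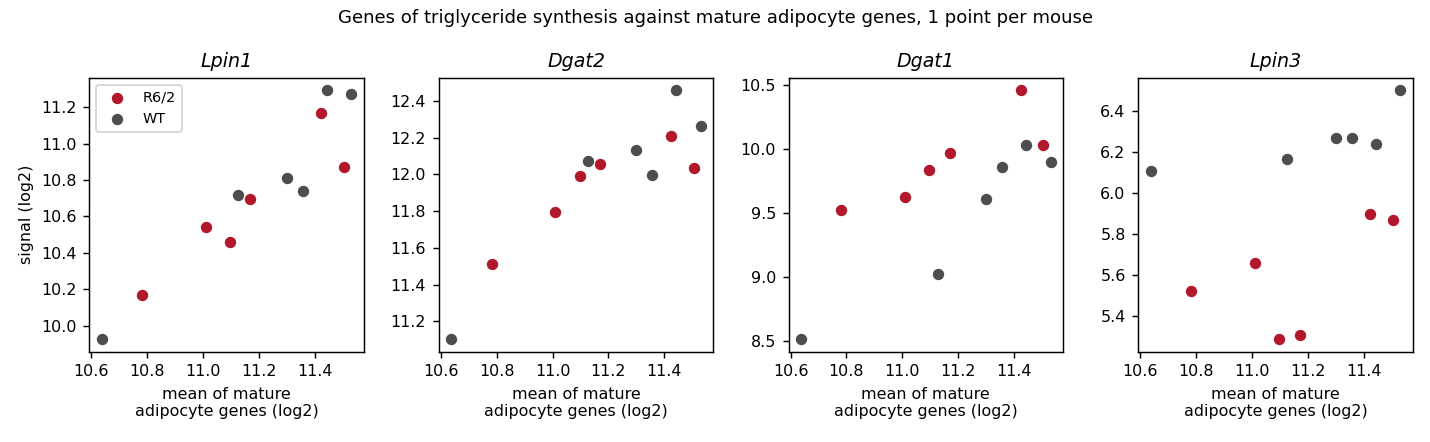
Log2 signal of *Lpin1*, *Dgat2*, *Dgat1* and *Lpin3* (vertical) against the mean log2 signal of 13 mature adipocyte genes (horizontal) in R6/2 (red) and WT (grey) mice, 1 point per mouse. *Lpin1* and *Dgat2* rise along 1 band shared by both genotypes (r of 0.937 and 0.898), and for *Lpin3* the R6/2 points lie below the WT points over the whole width.

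With the lymphocyte mean the relations ran the other way. These relations used the 9 mice in which that mean was high, a restriction chosen after the data had been seen. *Lpin1* had r of −0.87 and rho of −0.983, which both passed (exact permutation test, adjusted p = 0.0123 and 0.00096). *Dgat2* (rho −0.883, exact permutation, adjusted p = 0.0221) and *Gpam* (rho −0.817, exact permutation, adjusted p = 0.0492) passed by rho but not by r. For the 5 genes of the co-varying group other than *Lpin1*, r lay between −0.752 and −0.54. No relation with the macrophage mean passed, where r was −0.594 to −0.201 for the 6 genes. With the muscle mean none passed by r, and *Agpat2* passed by rho (0.776, adjusted permutation p = 0.0221).

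For each of the 8 genes, the 3 genes of the table with the highest r over the 12 arrays were looked up, as a description. *Lpin3* was closest to *Grb14*, an adaptor that binds the insulin receptor (r = 0.933), then to *Gm11827* (0.909) and *Tsr2* (0.903). With the genotype means taken out these values were 0.770, 0.745 and 0.726. *Grb14* averaged 6.67 ± 0.31 in R6/2 and 7.34 ± 0.17 in WT pads (SD, n = 6 each), a difference of −0.67 (SE 0.14) that did not pass (limma adjusted p = 0.375).

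*Lpin1* was closest to *Gnb5* (r = 0.995), *Msrb1* (0.982) and *Enpep* (0.981), and *Gpam* to *Mtarc2* (0.983), *Cox7a2* (0.983) and *Tmem242* (0.981). *Agpat2* stood next to *Pgd*, of the pentose phosphate pathway, *Pygl*, the liver glycogen phosphorylase, and *Cyb5b* (0.961 each). For *Agpat3* they were *Bola3* (0.973), *Echs1*, of fatty acid oxidation (0.972), and *Ndufa1*, of respiratory complex I (0.966). *Dgat1* was nearest to *Irs1*, the insulin receptor substrate (0.970), *Bend7* (0.962) and *Csad* (0.958), and *Dgat2* to *Cdkn2c* (0.947), *Mien1* (0.945) and *Fn3krp* (0.944). *Lpin2* had the least close neighbours, *Trpc2* (0.861), *Fancg* (0.854) and *A630072M18Rik* (0.848).

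Other genes of the pathway were looked up as well. Of 14 further measured genes of glycerolipid synthesis, 7 had a higher and 7 a lower mean in R6/2 pads, with a median of 0.01. At an unadjusted p under 0.05 there were 0, against 5.84% of all genes (0 by limma adjusted p and by SAM). In a list this short, 0 is close to that share. *Mogat1*, a monoacylglycerol acyltransferase, had −0.38 (SE 0.20), *Plpp3*, a lipid phosphatase, −0.37 (SE 0.23), *Agpat1* 0.14 (SE 0.081) and *Acbd5* 0.09 (SE 0.12). The supply of glycerol 3-phosphate was read by 10 genes, 7 higher and 3 lower (54.2% and 45.8% of all genes), with a median of 0.04. Of these 10, again 0 had an unadjusted p under 0.05, which is also close to the share over all genes. Among them *Gpd2* and *Gpd1*, which convert glycerol 3-phosphate and dihydroxyacetone phosphate, had 0.37 (SE 0.25) and 0.35 (SE 0.27), *Gpd1l* 0.15 (SE 0.11) and the glycerol channel *Aqp9* −0.18 (SE 0.10).

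Phosphatidic acid and diacylglycerol also feed phospholipid synthesis. Of 22 genes of that branch, 18 had a higher mean in R6/2 pads, against 54.2% of all genes, with a median of 0.05. An unadjusted p under 0.05 was found for 3 of the 18 (368 of all genes, 2.53%, were higher at this threshold). These were *Pisd*, which makes phosphatidylethanolamine (0.20, SE 0.076, limma adjusted p = 0.795), *Crls1*, the cardiolipin synthase (0.44, SE 0.20, adjusted p = 0.839), and *Ptdss2*, a phosphatidylserine synthase (0.33, SE 0.15, adjusted p = 0.841). *Pcyt2*, of the ethanolamine pathway, had 0.34 (SE 0.20).

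Of 10 genes known to act on lipins, 9 had a higher mean in R6/2 pads, against 54.2% of all genes, with a median of 0.06. At an unadjusted p under 0.05, 3 of the 10 were higher, against 2.53% of all genes. This list, like the others, was chosen with earlier results of these data known, and the share was not tested. *Nr3c1*, the glucocorticoid receptor, which induces *Lpin1* in adipocytes, averaged 9.80 ± 0.035 in R6/2 and 9.59 ± 0.050 in WT pads (SD, n = 6 each). All 6 R6/2 mice were above all 6 WT mice, as for 29 genes (0.199%) of the table, and the difference was 0.20 (SE 0.053; limma adjusted p = 0.588, SAM q = 16.5%). *Ppargc1a*, a coactivator that lipin 1 binds, had 0.58 (SE 0.24, adjusted p = 0.825) and *Mtor*, the kinase that phosphorylates lipin 1, had 0.34 (SE 0.16, adjusted p = 0.842). *Ppara*, a nuclear receptor that works with lipin 1, had 0.59 (SE 0.29, adjusted p = 0.862).

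Droplet assembly was read by 12 genes, 8 higher and 4 lower, against 54.2% and 45.8% of all genes. *Plin4*, a coat protein of the droplets of white adipocytes, had −0.42 (SE 0.19, limma adjusted p = 0.839) and the only unadjusted p under 0.05 of the 12. Of all genes, 3.31% were lower at this threshold. *Fitm1*, which binds triglyceride, had 0.53 (SE 0.34), *Cidea*, a droplet fusion protein of brown and beige fat, 0.49 (SE 0.33), and *Hilpda* −0.12 (SE 0.073). The 10 thermogenic genes, among them *Ppargc1a*, *Ppara* and *Cidea*, had 9 higher means, against 54.2% of all genes, and a median of 0.53. Their mean signal was 8.89 ± 0.65 in R6/2 and 8.16 ± 0.67 in WT pads (SD, n = 6 each, exact permutation p = 0.0844).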

How the data were processed

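Total RNA of inguinal WAT from 12 mice was hybridised by the authors, 1 array per mouse. The authors set a minimum RNA integrity and used RMA, run in Affymetrix Expression Console 1.1.2 per the submitters' processing notes. The deposited values are log2 signals per probe set, without filter or centring. Of 41345 probe sets, 23521 had a single gene symbol in the platform annotation, 1820 had several and 16004 had none, and those with several or none were not tested. After the level filter 15328 probe sets remained, and the 595 genes with several were merged by the median, which left 14550 genes. Array medians were 5.75 to 5.87. RMA sets all arrays to 1 distribution before this, so a change common to most genes would not show. Precision is set by the number of mice, 6 a genotype.

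R6/2 minus WT differences came from lmFit and eBayes of limma 3.58.1 (R 4.3.3). No covariate entered, p-values were adjusted by Benjamini-Hochberg over the 14550 genes, and 0.05 was the threshold. For SAM, 100 regroupings of the mice into 6 and 6 were drawn at random, and s0, set from the data, was 0.0546. The unchanged share was 0.948, and genes were called under a q of 5%. Exact permutation tests were two-sided. Correlations used 100000 permutations that did not keep mice within genotypes, and exact ones over 9 mice (SciPy 1.17.1, NumPy 2.4.6, pandas 2.3.3). Tables were handled with data.table (version 1.17.8), and plots were made with Python 3.11.15 and matplotlib 3.10.9. Simulated data of this comparison had 14550 genes, with 50 genes each changed by 1.5, 2, 3 and 4 times. In them limma recovered 19, 39, 46 and 49 and SAM 14, 36, 46 and 49, with 6 and 1 unchanged genes called. Each gene was drawn independently of the others, unlike on the arrays, so these counts need not hold for the real data.

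The members and lists were chosen with earlier results of these data known. Named genes were the 8 members, up to 4 genes with the smallest p in each further list, and the 3 genes with the highest r for each member. Labels give 1 sample per mouse, and no 2 arrays held identical values. Alternatives covered the filter, merging, normalization, variance model, array weights, covariates, the replicate number and each mouse left out.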

Additional observations from a re-analysis of the deposited data

Results flagged for a closer look

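Each gene was examined in each genotype for a mouse far from the others by Dixon's test, 16 groups of 6 mice in all, of which chance marks about 1 in 20. In 1 of them, *Dgat2* in WT pads, mouse 3 stood apart at 11.10, while the nearest WT mouse was at 12.00 and the gap took up 0.661 of the whole range. The same mouse had the lowest signal of all 12 for *Gpam*, *Agpat2*, *Agpat3*, *Lpin1* and *Dgat1*. Without it the *Dgat2* difference between R6/2 and WT mice was −0.25.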

How the results depend on the processing

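*Lpin3* kept its direction under the 27 alternatives run, with values from −0.80 to −0.61. Many of these could not have turned its sign. As all R6/2 values lay below all WT values, leaving out mice or weighting arrays could not do so. The filter, merging, variance and replicate settings, and SAM, left the difference at −0.67. It passed the adjusted threshold with array weights (−0.80, limma adjusted p = 0.00529), with the lymphocyte mean as a covariate (−0.67), among the 9 mice with a high lymphocyte mean (−0.76, chosen after the data had been seen), without R6/2 mouse 4 (−0.72, limma adjusted p = 0.0491) and by SAM (−0.67). Leaving out each mouse gave −0.73 to −0.61. *Lpin1* and *Dgat1* also kept their direction under all 27, at −0.41 to −0.04 and 0.16 to 0.53, and none of the 7 other genes had an adjusted p or q past the threshold under any of them.

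The small differences of the remaining genes turned sign. With the macrophage covariate *Gpam* had −0.19, *Agpat2* −0.13 and *Agpat3* −0.11, and with the muscle covariate *Agpat3* had −0.0114. With the adipocyte covariate *Dgat2* had 0.00662 and *Lpin2* −0.0130. *Lpin2* also had −0.0111 without the level filter and −0.00854 after quantile normalization, and *Gpam* −0.00641 with array weights. Leaving out each mouse gave −0.0196 to 0.261 for *Agpat2*, −0.00293 to 0.121 for *Agpat3* (lowest without WT mouse 3 for both), −0.251 to 0.0204 for *Dgat2* (positive without R6/2 mouse 5 or WT mouse 1), 0.0157 to 0.317 for *Gpam* and −0.129 to 0.0396 for *Lpin2*. For *Lpin2*, leaving out R6/2 mouse 2 or 5, or WT mouse 5 or 6, turned the sign; without WT mouse 6 its second probe set passed the level filter. The causes were not tested.

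Over all genes, limma called 0, against 46 with array weights (40 lower, 6 higher), 106 by SAM (102 lower, 4 higher), 7 with the adipocyte covariate (3 lower, 4 higher), 21 with the lymphocyte covariate (18 lower, 3 higher), 9 in the 9 mice (8 lower, 1 higher) and 850 at the unadjusted threshold (482 lower, 368 higher). Under limma, leaving out each mouse gave 0 to 23 calls, with 0 to 22 lower and 0 to 1 higher. The most came without R6/2 mouse 4, and without WT mouse 1 or 3 there was 1. With SAM, leaving out each mouse gave 17 to 428 lower and 0 to 10 higher calls. The fewest lower calls came without R6/2 mouse 6 and the most without R6/2 mouse 4. Replicate numbers did not pair the mice: deviations of same-numbered mice correlated at −0.78 to 0.78, and 1 R6/2 mouse correlated best with its own number. With the replicate number as a block limma called 2 genes (2 lower), and *Lpin3* had −0.67 (SE 0.11, limma adjusted p = 0.344). Median shifts over all genes were 0.01 as reported, −0.001 after quantile normalization and 0.02 after centring. With 6 mice a genotype, limma recovered 19 of 50 changes of 1.5 times in simulated data, in which genes were drawn independently of each other. The result for *Lpin3* is limited by the closeness of its signal to the level limit.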

Other observations

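Within each mouse, the *Dgat1* signal minus the *Dgat2* signal was −2.17 at the lowest, −2.05 at the median and −1.75 at the highest in R6/2 pads, against −3.05, −2.48 and −2.14 in WT pads. Of the R6/2 mice, 4 were above all WT mice, and the means differed by 0.49. The log2 signal of *Lpin1* minus that of *Lpin3* averaged 5.06 ± 0.27 in R6/2 and 4.54 ± 0.41 in WT pads (SD, n = 6 each), with 3 R6/2 mice above all WT mice. *Agpat2* minus *Agpat3* averaged 2.61 ± 0.039 in R6/2 and 2.54 ± 0.26 in WT pads (SD, n = 6 each). These pairs were chosen after their values were seen and were not tested. Because every probe set has its own brightness, such a difference is read between mice and not as a ratio of transcripts.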
